A study of Mus musculus with 15 samples.

Results

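The genes described here are 8 genes that build and supply MHC class I molecules: H2-K1, H2-D1, B2m, Tap1, Tap2, Tapbp, Nlrc5 and Erap1. They were chosen by symbol, and all 8 were found among the 55536 GENCODE M21 gene identifiers of the count table and among the 24262 genes that were tested. Poly(A) RNA had been sequenced from CD8+ T cells of OT-I mice, a C57BL/6J strain transgenic for a T cell receptor that sees an ovalbumin peptide on H2-Kb. The donor cells were transferred into C57BL/6J recipients, and they were sorted from spleen and lymph nodes on day 4 by the labels, where the study's methods give a somewhat earlier time. The Ag group (5 libraries) came from recipients given the peptide alone and the Ag+Costim group (5 libraries) from recipients given the peptide with agonist antibodies against OX40 and 4-1BB. Both groups therefore shared the transgenic receptor, the transfer and the peptide, and differed in the agonist antibodies, in whose place the Ag recipients had rat IgG according to the study's methods. The study's methods describe the OT-I mice as deficient in Rag1 or Rag2. Mice of both sexes were used, and all donor cells carry a single receptor specificity, which limits them as a model of a mixed CD8+ T cell response. The labels also name 5 Naive libraries from OT-I mice without transfer, and their counts were not analysed here.

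MHC class I molecules display peptides from inside the cell to CD8+ T cells. The proteasome cuts proteins into peptides, the Tap1 and Tap2 transporter carries them into the endoplasmic reticulum, Erap1 trims them there, and Tapbp (tapasin) bridges the transporter to waiting class I molecules. These consist of a heavy chain, H2-K or H2-D in the C57BL/6 mouse, bound to the light chain beta-2-microglobulin, encoded by B2m. Nlrc5 is the transactivator that binds class I promoters through partner proteins and drives many of these genes together. T cells themselves carry class I molecules on their surface.

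The Ag libraries held 59.6 to 449.4 M estimated counts (M, 1e6) and the Ag+Costim libraries 332.3 to 639.1 M. The Ag+Costim libraries were alike, with correlations of log2 CPM across genes between 0.994 and 0.997, whereas pairs of Ag libraries ranged from 0.928 to 0.994. In Ag replicates 1, 3 and 4 between 40441 and 51778 genes had a count, against 20714 and 21779 in replicates 2 and 5 and 28727 to 30340 in the Ag+Costim libraries. The 12 markers of cycling cells summed to 743, 6583, 3964, 784 and 7279 CPM in Ag replicates 1 to 5 and to between 6432 and 8114 CPM in Ag+Costim. Ag replicates 1 and 4 were thus low for cell cycle genes, and replicate 3, the library with the fewest counts, was the highest for 6 erythroid markers (1100 CPM, against 3.79 to 125 CPM in the other 9 libraries) and for 6 B cell markers (350 CPM, against 31.4 to 191 CPM). The 7 CD8 T cell markers, which check the label, were present in every library and summed to 3885 to 7463 CPM in Ag and 5318 to 6269 CPM in Ag+Costim. The 3 CD4 T cell markers summed to at most 11.4 CPM and the 8 myeloid markers to at most 307 CPM in any library, and no marker of any list was at 0 in all 10 libraries. Whether these differences between libraries have a part in the results below was not tested. In such bulk samples fewer cells of a type and less RNA per cell cannot be told apart.

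Across all genes, edgeR's quasi-likelihood test called 0 of 24262 genes between Ag+Costim and Ag (0% at a Benjamini-Hochberg (BH) adjusted p under 0.05), and 4501 genes (18.6%) had an unadjusted p under 0.05. DESeq2 called 14.3% of genes (778 higher and 5436 lower in Ag+Costim) and limma with a weight for each library 52.2% (6254 higher and 6416 lower). Of the 8 class I genes, edgeR called 0, DESeq2 called Erap1, and weighted limma called Erap1 (higher) and H2-K1 (lower). When Ag replicates 1, 3 and 4 were left out, a step chosen after the data were seen and by the number of genes detected, edgeR called 10.8% of genes and, of the 8, Nlrc5. The median log2 fold change of the 8620 genes tested with a mean of at least 10 CPM was 0.24 under the TMM scaling used here. It was 0.12 under the size factors of DESeq2 and 0.0065 when libraries were scaled to their totals. A log2 fold change is therefore also given against that median where it matters.

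H2-K1 and H2-D1 encode the classical heavy chains, and H2-Kb is the molecule that presents the OT-I peptide. H2-K1 (ENSMUSG00000061232.16, chr17:33996017-34000347, minus strand, mm10) stood at 3259, 2651, 1706, 3415 and 2750 CPM in Ag replicates 1 to 5 and at 2392, 2358, 2562, 1740 and 2097 CPM in Ag+Costim replicates 1 to 5. All Ag libraries but replicate 3 lay above every Ag+Costim library, and replicate 3 lay below them all, so that the groups overlapped. Ag averaged 2756 ± 671 CPM and Ag+Costim 2230 ± 320 CPM (SD, n = 5 each). The fitted log2 fold change of H2-K1 was -0.31 (SE 0.21, BH = 0.38 in edgeR), or -0.54 relative to the median of expressed genes. In weighted limma it was -0.47 with a BH of 0.022. H2-D1 (ENSMUSG00000073411.11, chr17:35262730-35267499, plus strand) stood at 4199, 4686, 3028, 4613 and 5442 CPM in Ag and at 4472, 4295, 4407, 3529 and 3992 CPM in Ag+Costim. Its Ag+Costim values lay inside the Ag range. Its log2 fold change was -0.09 (SE 0.19, BH = 0.78), or -0.32 relative to the median of expressed genes. In edgeR fits it was -0.34 with total counts (BH = 0.22) and -0.22 with DESeq2 size factors (BH = 0.37). Reads of the 2 heavy chain genes can be shared with each other and with other class I genes of near-identical sequence, and how they were divided in the counting makes these levels uncertain.

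B2m (ENSMUSG00000060802.8, chr2:122147686-122153083, plus strand), the shared light chain, stood at 1987, 2511, 1650, 2220 and 3001 CPM in Ag and at 2177, 2211, 2246, 1827 and 1854 CPM in Ag+Costim. Every Ag+Costim library lay between the lowest and the highest Ag library. The log2 fold change of B2m was -0.14 (SE 0.19, BH = 0.64 in edgeR), or -0.38 relative to the median of expressed genes. With total counts it was -0.38 (BH = 0.22 in edgeR), and without Ag replicates 1, 3 and 4 also -0.38 (BH = 0.0501). Of the 28 pairs among the 8 genes, H2-D1 and B2m had the most alike profiles: their log2(CPM + 1) values, each taken as the deviation from the gene's mean over the 10 libraries, differed by 0.083 (root mean square). Tap1 and Tap2 came next at 0.11, and the 7 pairs with Nlrc5 were the least alike, at 0.55 to 0.71. These points share libraries and scaling, and the values are descriptions.

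**Figure D1:**
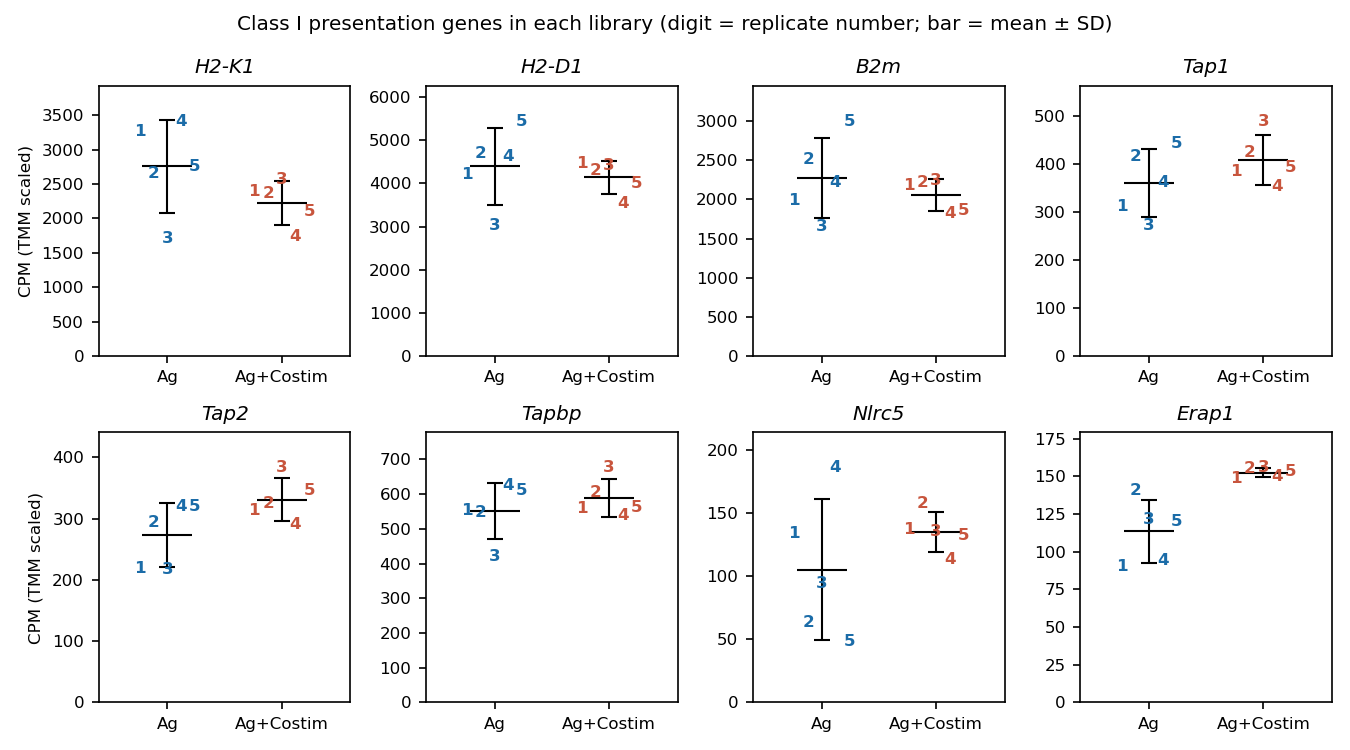
CPM (TMM scaled, linear axis from 0) of the 8 genes in each library, where a digit is the replicate number within Ag (blue) or Ag+Costim (red) and the black bars give the mean ± SD. The Ag libraries are spread more widely than the Ag+Costim libraries for every gene, and only for Erap1 do the groups not overlap.

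RefSeq promoter sequences (GRCm38.p6, from 250 bases before to 50 bases after the start) were found for 6 of the 8 genes: B2m, Erap1, H2-D1, H2-K1, Tap1 and Tapbp. Class I promoters carry a module, bound by RFX, CREB or ATF and NF-Y proteins and by Nlrc5 through them, in which a TGACG core stands a fixed distance upstream of the letters ATTGG, an inverted CCAAT box. Windows upstream of the RefSeq start of both heavy chain genes and of B2m are shown because they hold this pair of motifs at the same spacing. RefSeq starts H2-D1 downstream of the GENCODE start given above, so that its window lies inside the GENCODE gene. Capitals mark both of these, a match to the NF-kB element and, in B2m, a match to the IRF element, which is a pair of GAAA runs with any 2 bases between them. Only this exact form of the IRF element was searched for, and looser forms are not marked.
B2m, chr2:122147548-122147638, plus strand: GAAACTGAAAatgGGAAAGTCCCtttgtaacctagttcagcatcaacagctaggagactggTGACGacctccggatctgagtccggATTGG
H2-K1, chr17:34000359-34000458, minus strand: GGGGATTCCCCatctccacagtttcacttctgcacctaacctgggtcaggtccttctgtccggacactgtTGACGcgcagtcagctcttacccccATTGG
H2-D1, chr17:35262923-35263022, plus strand: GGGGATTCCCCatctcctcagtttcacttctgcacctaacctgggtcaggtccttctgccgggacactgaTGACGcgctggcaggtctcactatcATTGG

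In all 3 windows 20 bases separated TGACG from the ATTGG after it. Searched on both strands, this spaced pair was found in 31 of 32851 promoters of the same length (0.0944%), whereas TGACG alone was in 20.8% and ATTGG alone in 37.4%. The NF-kB element, which in both heavy chain genes matched on either strand with an offset of a single base, was found in 8.46% of promoters and the IRF element in 3.44%, among them that of Erap1. The Tap1 promoter held both motifs but not at this spacing, and that of Tapbp held ATTGG alone. A match describes these letters and is not evidence of binding.

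Tap1 and Tap2 form the peptide transporter, and Tapbp holds it to class I molecules. Tap1 (ENSMUSG00000037321.17, chr17:34187553-34197225, plus strand) stood at 311, 417, 272, 362 and 443 CPM in Ag and at 384, 425, 490, 353 and 394 CPM in Ag+Costim, so that the groups overlapped. Tap2 (ENSMUSG00000024339.12, chr17:34203527-34216321, plus strand) stood at 219, 294, 216, 320 and 319 CPM in Ag and at 312, 324, 383, 291 and 345 CPM in Ag+Costim, with Ag replicates 1 and 3 below all Ag+Costim libraries. Tapbp (ENSMUSG00000024308.15, chr17:33915899-33929292, plus strand) stood at 552, 548, 419, 626 and 610 CPM in Ag and at 559, 605, 676, 540 and 561 CPM in Ag+Costim. Of these genes, Tap2 had the largest log2 fold change at 0.27 (SE 0.17, BH = 0.33), close to the median of expressed genes. That of Tap1 was 0.18 (SE 0.17, BH = 0.52) and that of Tapbp 0.09 (SE 0.15, BH = 0.70). With total counts the values of Tap1 and Tapbp turned to -0.064 and -0.18, so no direction is given for either. Part of Tap1 lies opposite Psmb9, and Tap2 and Tapbp overlap other genes too; the kit does not mark strand, so reads from overlapping stretches cannot be told apart.

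Erap1 (ENSMUSG00000021583.7, chr13:74639568-74693201, plus strand), the peptidase that trims peptides in the endoplasmic reticulum, was the gene with the clearest separation. It stood at 90.2, 141, 121, 94.4 and 120 CPM in Ag and at 149, 155, 156, 150 and 153 CPM in Ag+Costim. The highest Ag library lay below the lowest Ag+Costim library, and the means were 113 ± 20.99 and 153 ± 3.16 CPM (SD, n = 5 each). The log2 fold change of Erap1 was 0.43 (SE 0.15, BH = 0.24 in edgeR), or 0.19 relative to the median of expressed genes. Of the 8620 genes with a mean of at least 10 CPM, 976 (11.3%) were likewise higher in Ag+Costim without overlap, so 1 of 8 class I genes is near that background. DESeq2 gave 0.31 with an adjusted p of 0.037, and weighted limma 0.66 with a BH of 8.0e-05. With total counts the groups of Erap1 overlapped (123 ± 16.5 and 139 ± 4.01 CPM). Erap1 overlaps Cast on the other strand.

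Nlrc5 (ENSMUSG00000074151.13, chr8:94434356-94527272, plus strand) varied most. It stood at 134, 63.6, 94.2, 186 and 48.1 CPM in Ag, a 3.86-fold range, and at 137, 158, 135, 113 and 132 CPM in Ag+Costim, a 1.40-fold range. Ag replicates 2, 3 and 5 lay below all Ag+Costim libraries, and Ag replicate 4 above them. Its log2 fold change over all 10 libraries was 0.36 (SE 0.32, BH = 0.49) with TMM and -0.024 with total counts. Without Ag replicates 1, 3 and 4 it was 1.30 (SE 0.16, BH = 0.0082 in edgeR), where the 2 Ag libraries left were the lowest of all 10 for this gene. Leaving out 1 library at a time gave values from 0.20 to 0.68, and edgeR called Nlrc5 in none of these fits. The Ag libraries with little Nlrc5 (replicates 2 and 5) were the ones with 6583 and 7279 CPM of cycling markers, and those with the most Nlrc5 (replicates 1 and 4) had 743 and 784 CPM, while the Ag+Costim libraries combined 6432 to 8114 CPM of cycling markers with 113 to 158 CPM of Nlrc5. The part of the cycling markers in these levels was not tested.

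**Figure D2:**
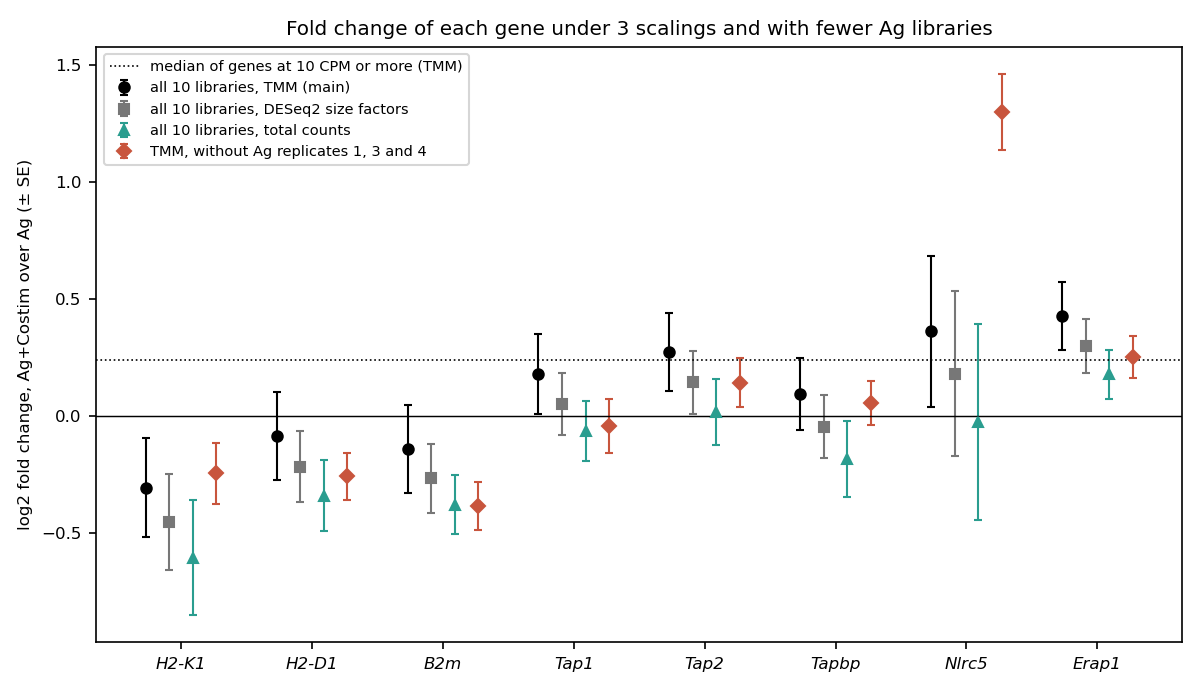
Log2 fold change of Ag+Costim over Ag for each gene (points, edgeR) with its SE (bars), for all 10 libraries under 3 scalings and, in red, without Ag replicates 1, 3 and 4. The dotted line is the median of 0.24 for expressed genes under TMM. H2-K1, H2-D1 and B2m lie below 0 under the settings drawn, Tap1, Tapbp and Nlrc5 lie on either side of it, and Nlrc5 moves to 1.30 with the fewer Ag libraries.

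Within Ag, the SD of log2 CPM was larger than within Ag+Costim for all 8 genes, as it was for 96.5% of genes with a mean of at least 10 CPM, and their share is close to that background. The ratio of the largest to the smallest Ag value ran from 1.48 for Tap2 to 3.86 for Nlrc5. In Ag+Costim it ran from 1.05 for Erap1 to 1.47 for H2-K1.

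Per kilobase of exon, the order of the 8 genes was the same in both groups. B2m stood highest, with an Ag mean of 2644 ± 598 CPM per kilobase and an Ag+Costim mean of 2399 ± 238 (SD, n = 5 each). H2-D1 followed at 1704 ± 343 and 1605 ± 150 CPM per kilobase, and H2-K1 at 938 ± 228 and 759 ± 109. With the length of the transcripts counted, H2-K1 stood at 1757 and 1422 CPM per kilobase and Tap1 at 126 and 143, over 1.5 times higher. H2-K1 kept its place in the order of the means. Tapbp stood at 152 ± 22.4 and 162 ± 15.1, Tap2 at 72.4 ± 13.8 and 87.6 ± 9.27, and Tap1 at 65.9 ± 13.0 and 74.7 ± 9.49 CPM per kilobase. Erap1 at 15.6 ± 2.88 and 20.95 ± 0.434 and Nlrc5 at 12.4 ± 6.56 and 15.9 ± 1.88 CPM per kilobase were lowest. Neighbours differed beyond their ranges in Ag+Costim except for Tap2 and Tap1, whose values overlapped and whose order turned when the length was that of the transcripts counted. With that length B2m (2124 to 2612 CPM per kilobase) and H2-D1 (1692 to 2144) overlapped in Ag+Costim too. In Ag, the ranges of B2m and H2-D1, of Tap2 and Tap1 and of Erap1 and Nlrc5 overlapped. With the length of the transcripts counted, the Ag ranges of H2-K1 (1088 to 2177 CPM per kilobase) and H2-D1 (1452 to 2609) overlapped too. The ratio of H2-K1 to H2-D1 was then 1.03 in Ag replicate 1.

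Ratios within a library do not depend on the scaling. The ratio of H2-K1 to H2-D1 counts per kilobase was 0.681 and 0.650 in Ag replicates 1 and 4, 0.497, 0.495 and 0.444 in Ag replicates 2, 3 and 5, and between 0.433 and 0.510 in Ag+Costim. Ag replicates 1 and 4 stood apart from the other 8 libraries, which overlapped with each other. The summed heavy chains to B2m ratio showed the same 2 libraries on top, at 1.18 and 1.14, against 0.873 to 0.931 in the other Ag libraries and 0.923 to 1.05 in Ag+Costim. On the log2 scale the heavy chains to B2m ratio averaged 0.0019 ± 0.20 for Ag and -0.023 ± 0.070 for Ag+Costim (SD, n = 5 each), a difference inside the spread. With the length of the transcripts counted these means were 0.55 and 0.50, so the level of this ratio rests on the length used. Tap1 and Tap2 encode the partner chains of a single transporter, and their ratio stayed between 0.782 and 0.981 in Ag and between 0.787 and 0.906 in Ag+Costim. With the length of the transcripts counted in place of all exons, the Tap1 to Tap2 ratio was 1.17 to 1.47 and 1.18 to 1.35, above 1 in every library, so no order of the chains is given. The ratio of Tap1 to Tapbp lay between 0.373 and 0.505 in Ag and between 0.433 and 0.480 in Ag+Costim. Tap1 and Psmb9, an immunoproteasome gene whose start lies beside that of Tap1, ranged more widely in Ag (0.517 to 0.884) than in Ag+Costim (0.668 to 0.827), with Ag replicates 1 and 4 highest of all libraries.

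**Figure D3:**
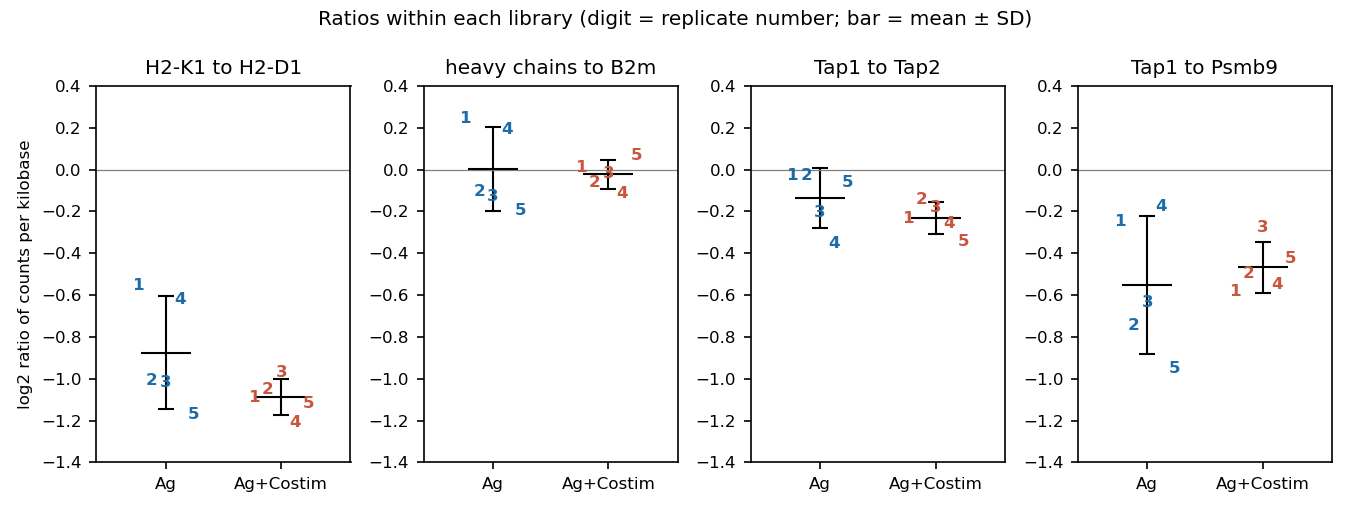
Log2 ratios of counts per kilobase of exon within each library for 4 of the gene pairs, with digits for the replicate numbers of Ag (blue) and Ag+Costim (red) and bars for the mean ± SD. Ag replicates 1 and 4 lie highest for the ratio of H2-K1 to H2-D1, of the heavy chains to B2m and of Tap1 to Psmb9.

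The genes most like each of the 8 were taken from 8156 other protein-coding genes with a mean of at least 10 CPM by the root mean square difference of these deviations over the 10 libraries. Hes6 and Itm2b lay closest to H2-D1 (0.035 and 0.049), and Stx8 and again Itm2b closest to B2m (0.053 and 0.055). Fam189b and Nudt16 lay closest to H2-K1 (0.069 and 0.074). For Tap1 they were Lrp10 and Phtf1 (0.068 and 0.078), for Tap2 Cd6 and Csnk1d (0.080 and 0.087), and for Tapbp Csk and Yy1 (0.057 and 0.062). Sbf1 and Abca7 were nearest to Nlrc5 but at a greater distance (0.11 and 0.15), with Sbf1 at 133, 62.0, 86.6, 185 and 49.1 CPM in Ag. Ttc13 and Faap100 lay closest to Erap1 (0.066 and 0.067).

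The other genes of the pathway are given from lists by role, and edgeR called 0 of their genes in either direction. Of 6 genes of peptide supply, 0 were called, 1 had an unadjusted p under 0.05, higher in Ag+Costim, and the median log2 fold change was 0.08. DESeq2 called 1 of the 6, also higher. Psmb8, a catalytic subunit of the immunoproteasome, averaged 867 ± 373 CPM over the Ag and 1014 ± 39.8 CPM over the Ag+Costim libraries, and Psme2, a subunit of the proteasome activator PA28, 400.4 ± 154 and 426 ± 36.5 CPM (SD, n = 5 each, Ag first here and below). Of 9 genes of the loading complex and its chaperones, 4 had an unadjusted p under 0.05, all higher in Ag+Costim and without overlap of the groups, and the median was 0.64, above that of expressed genes at 0.24. DESeq2 called 3 of the 9 higher. Over all genes 18.6% had such a p in either direction, and DESeq2 called 14.3%. Of genes with a mean of at least 10 CPM, 11.3% were higher in Ag+Costim without overlap. Hspa5, the main chaperone of the endoplasmic reticulum, stood at 817 ± 423 and 1351 ± 274 CPM, and Pdia3, which sits in the loading complex with tapasin, at 822 ± 417 and 1305 ± 149 CPM. Both are outside the 4, with overlapping groups and an unadjusted p of 0.060 for Hspa5 and 0.067 for Pdia3 in edgeR. These genes serve many secreted proteins besides class I. The list summed to 1889 and 2239 CPM in Ag replicates 1 and 4, to 3628 to 5467 CPM in the other Ag libraries and to 5412 to 7571 CPM in Ag+Costim.

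Of 7 other peptidases, 6 were found by symbol, with a median log2 fold change of 0.58 and 3 at an unadjusted p under 0.05, all higher. Over all genes tested 18.6% had such a p, in either direction. Blmh, a cytosolic peptidase, stood at 161 ± 72.3 and 246 ± 19.3 CPM and Tpp2, a large cytosolic peptidase, at 137 ± 35.5 and 200.4 ± 12.3 CPM. The 15 other class I heavy chain genes tested, of 16 listed, had a median of -0.26, with 3 of 15 above 0. For comparison, the median was -0.32 over all genes tested and 0.24 over those with a mean of at least 10 CPM. H2-Q7 stood at 482 ± 127 and 516 ± 44.8 CPM and H2-T23, which encodes Qa-1, at 427 ± 104 and 356 ± 50.01 CPM. Of 17 transactivators and related factors, 2 had an unadjusted p under 0.05 higher and 1 lower, with a median of 0.11. Irf1, a transcription factor induced by interferons, stood at 208 ± 35.5 and 224 ± 36.1 CPM. Of 9 interferon receptor, kinase and related genes, 1 had an unadjusted p under 0.05, lower, and the median was -0.03. Jak1, a kinase bound to interferon receptors, stood at 907 ± 77.0 and 1015 ± 105 CPM and Ifngr1, a chain of the interferon gamma receptor, at 279 ± 117 and 341 ± 65.4 CPM.

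Class II genes and their partners, which antigen presenting cells use, were 8 of 8 below 0 with a median of -1.26. The median of all 24262 genes tested was -0.32, and that of genes with a mean of at least 10 CPM was 0.24. DESeq2 called 5 of them lower, in a fit that called 14.3% of all genes in either direction, most of them lower. Cd74, the invariant chain, stood at 304 ± 282 and 138 ± 45.1 CPM, and H2-Ab1 at 109 ± 102 and 40.1 ± 17.1 CPM. The list summed to 489, 148, 1520, 622 and 371 CPM in Ag replicates 1 to 5, and the 6 B cell markers to 135, 34.6, 350, 191 and 40.8 CPM in the same libraries and to 31.4 to 52.7 CPM in Ag+Costim. The B cell markers (6 of 6 below 0, DESeq2 calling 3) were highest in the Ag libraries with the most class II counts. By the study's methods the cells were sorted for CD8 and the donor marker CD45.1 to high purity. The part of the B cell markers in the class II difference was not tested.

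Transcript usage was tested as the share of a gene's counts that each annotated transcript received. A gene was called at a BH under 0.05 with a change in mean share over 0.1. Of 10441 genes 31 (0.297%) were called, and 0 of the 7 class I genes with more than a single transcript in the test, where the lowest unadjusted p was 0.65. With limma's diffSplice H2-K1 had a BH of 0.014, at a change in mean share of 0.077 that is under the change required. Taken by transcript, the shares of 2.46% of all transcripts tested did not overlap between the groups. Erap1-201 and H2-D1-202 held nearly all counts of their genes, at 98.6% and 99.1% in Ag and 99.2% and 99.1% in Ag+Costim, and B2m has a single annotated transcript. Tapbp-206 held 91.6% and 91.1% and Tapbp-201 8.19% and 8.69%. Nlrc5-207, with 53 exons, held 89.2 ± 5.13% and 91.8 ± 3.28% of the Nlrc5 counts, and Nlrc5-204 5.22% and 4.41%. H2-K1, Tap1 and Tap2 were each divided between a pair of main transcripts.

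H2-K1-201 and H2-K1-205 differ in 27 bases at the start of the last exon, which are coding and leave the stop codon in frame, so that the tail of the heavy chain inside the cell is 9 codons longer with them. Whippet's percent spliced in (PSI, the fraction of molecules that include a segment, with 1 pooled value for each group) was used beside the transcript counts. The segment is shown in capitals between the seventh exon and the end of the reading frame (chr17:33996472-33996654, minus strand, mm10, with the intron left out).
H2-K1: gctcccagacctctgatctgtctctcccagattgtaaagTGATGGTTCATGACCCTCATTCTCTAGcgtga

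By transcript counts, H2-K1-205, which lacks the segment, held 62.4, 59.2, 20.8, 61.0 and 59.3% of H2-K1 counts in Ag and 59.3 to 60.6% in Ag+Costim. H2-K1-201, which has it, held 24.3, 30.2, 67.5, 24.5 and 29.0% in Ag and 26.4 to 28.5% in Ag+Costim. Ag replicate 3, the library with the fewest counts, stood apart from the other 9. H2-K1-203, annotated as a retained intron, held 5.23% in Ag and 6.39% in Ag+Costim. Over all transcripts that either hold or lack the segment, the counts gave an inclusion of 31.1, 36.8, 78.3, 33.2 and 35.9% in Ag and of 34.0 to 35.2% in Ag+Costim. The pooled PSI of the same 27 bases was 94.9% in Ag and 94.8% in Ag+Costim. Both measures put the groups side by side, and they disagreed on the level. The transcripts also differ in their annotated ends, by 36 bases at the 3′ and 58 at the 5′ end, and what makes the measures differ was not tested.

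Tap1-206 and Tap1-201 differ in 84 bases in the middle of the gene, annotated in Tap1-201 as an intron between exons of 21 and 24 bases, and in their start. The 84 bases (capitals) are shown with both short exons (chr17:34192837-34192965, plus strand). They begin with GT and end with AG, and their length keeps the reading frame.
Tap1: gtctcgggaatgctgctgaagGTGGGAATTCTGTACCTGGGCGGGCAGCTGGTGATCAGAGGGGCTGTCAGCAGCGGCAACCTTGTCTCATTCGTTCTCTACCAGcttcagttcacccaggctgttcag

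Tap1-201 held 42.5, 47.5, 50.1, 41.5 and 46.2% of Tap1 counts in Ag and 50.2, 47.1, 53.4, 49.6 and 42.0% in Ag+Costim. Tap1-206 held 41.9, 43.8, 41.9, 41.9 and 49.0% and 40.6, 43.1, 39.8, 44.0 and 51.6%. The retained-intron transcript Tap1-204 held 8.21 ± 3.599% in Ag and 6.25 ± 1.52% in Ag+Costim. Counts gave the 84 bases an inclusion of 53.6 ± 3.11% for Ag and 51.1 ± 4.25% for Ag+Costim (SD, n = 5 each), whereas the pooled PSI was 97.5% and 96.6%. For the upstream start, which Tap1-206, Tap1-204 and Tap1-202 have and Tap1-201 lacks, counts gave 54.1 ± 3.36% and 51.3 ± 4.25%, close to the pooled PSI of 55.9% in both groups. Tap1-202 ends before the 84 bases, so the sets of transcripts behind these measures are not the same.

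**Figure D4:**
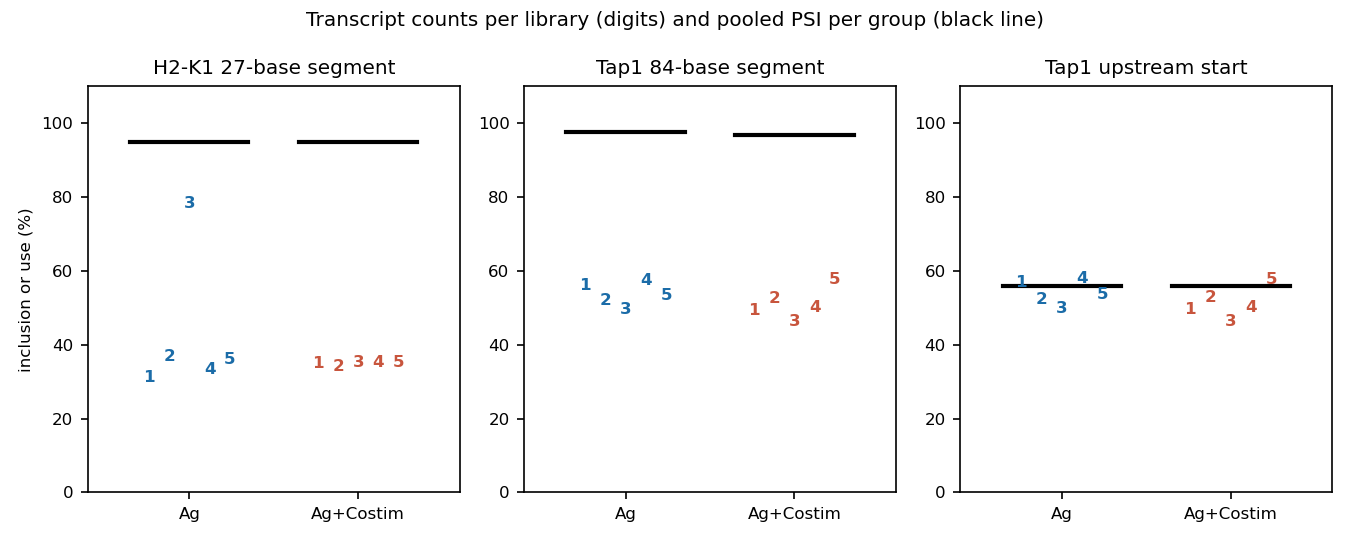
Inclusion of the 27-base segment of H2-K1, of the 84 bases of Tap1 and use of the upstream start of Tap1 in percent, from transcript counts in each library (digits are replicate numbers) and from the pooled PSI of each group (black lines). Counts lie far below PSI for both segments and close to it for the start, and Ag replicate 3 stands apart for H2-K1.

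Tap2-202, annotated as keeping an intron of 162 bases (chr17:34212068-34212229), held 63.6, 57.6, 49.2, 60.2 and 50.6% of Tap2 counts in Ag and 57.5, 57.6, 51.4, 53.5 and 57.5% in Ag+Costim, and the spliced Tap2-201 nearly all the rest. The groups overlapped, and the means of counts assigned to the transcript with the intron were 56.3 ± 6.20% and 55.5 ± 2.88%. Tap2-201 and Tap2-202 also differ in their annotated starts, by 1040 bases, so this share need not measure retention of the intron. The PSI table held 10 events of Tap2, all core exons with a PSI of at least 0.9996 in both groups, and 0 intron events to set beside this.

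The PSI table held 122 events of the 8 genes, among them 106 core exons. Over all genes 11.9% of 138940 events had a PSI difference over 0.05 between the groups, and of the 122 events 3 had, all in Nlrc5. With 1 pooled value a group there is no replicate check, and these are values without a test. The core exons of H2-D1, B2m, Tapbp, Tap2, Erap1 and H2-K1 all had a PSI over 0.99 in both groups. A pair of the 3 Nlrc5 events are neighbouring transcript ends that lie 8 bases apart, with 0.921 in Ag and 0.616 in Ag+Costim for the upstream end (chr8:94525979-94527264) and 0.0792 and 0.384 for the downstream one. Transcript counts gave neither these levels nor this shift. Nlrc5-207 and Nlrc5-201, which have the downstream end, held 89.2% and 4.73% of Nlrc5 counts in the Ag libraries on average. In Ag+Costim they held 91.8% and 3.13%. Nlrc5-202, which has the upstream end, held 0.317% for Ag and 0.185% for Ag+Costim. Why counts and PSI differ at these ends was not tested. The remaining event of the 3 was a core exon of 69 bases (chr8:94489513-94489581), at 0.992 for Ag and 0.924 for Ag+Costim.

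Nlrc5 had 49 core exons in the table, of which 47 have lengths that are multiples of 3 and 25 are 84 bases long. These repeated exons encode leucine-rich repeats, the long tail of the protein. Only 6 core exons had a PSI under 0.9 in both groups, and 3 of these are neighbours. Along with the exon before them they are near copies of each other, which is why the 4 are printed here, with capitals at the 5 positions where they differ (mm10, plus strand).
chr8:94520823-94520906: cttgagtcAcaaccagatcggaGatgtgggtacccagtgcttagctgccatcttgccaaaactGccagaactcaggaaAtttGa
chr8:94521016-94521099: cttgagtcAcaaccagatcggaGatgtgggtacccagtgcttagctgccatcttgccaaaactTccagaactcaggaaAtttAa
chr8:94521210-94521293: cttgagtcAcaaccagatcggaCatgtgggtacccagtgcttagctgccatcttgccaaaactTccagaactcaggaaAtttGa
chr8:94521403-94521486: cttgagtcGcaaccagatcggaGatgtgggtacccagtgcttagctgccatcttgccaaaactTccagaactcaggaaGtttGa

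Any pair of the 4 agreed at 81 or 82 of 84 bases, and the exons start 193 or 194 bases apart. Of the 37 other Nlrc5 core exons that share their length with another exon, none was more than 56.0% identical to an exon of its length. The PSI of the 4 exons, in this order, was 0.989, 0.571, 0.504 and 0.773 in Ag and 0.986, 0.611, 0.538 and 0.772 in Ag+Costim. Of these 4 near copies 3 were low and 1 was not, and reads from one copy can also match another, whose part in the values was not tested. The annotated transcripts that span the 3 copies of low PSI (2 of 2) all contain them, so transcript counts cannot show whether any is skipped. The other 3 exons under 0.9 are no near copies. An exon of 76 bases (chr8:94446058-94446133) stood at 0.844 for Ag and 0.812 for Ag+Costim, and an exon of 108 bases (chr8:94459692-94459799) at 0.806 and 0.793, and 1 of 3 annotated transcripts that span each of them skips it. A 90-base exon (chr8:94481976-94482065) stood at 0.692 for Ag and 0.729 for Ag+Costim, is contained in 3 of 3 transcripts that span it, and was at most 53.3% identical to another exon of its length.

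**Figure D5:**
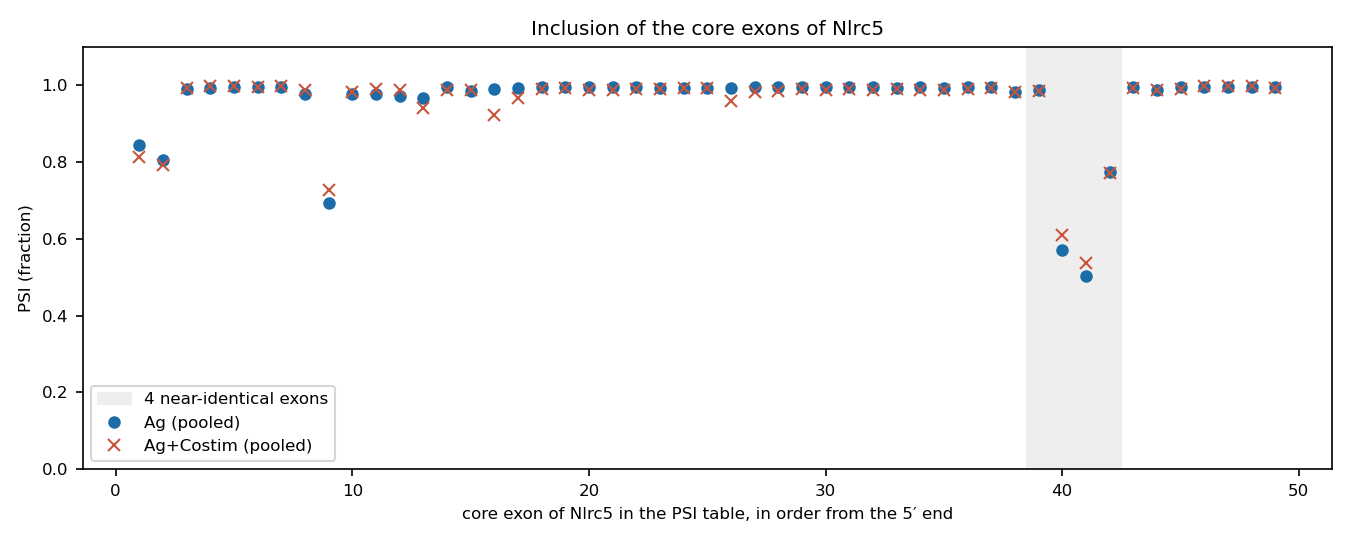
PSI (fraction, linear axis from 0) of the 49 core exons of Nlrc5 in order from the 5′ end, with circles for the pooled Ag value and crosses for the pooled Ag+Costim value. The grey band marks the 4 near-identical 84-base exons, of which 3 lie between 0.50 and 0.77 in both groups.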

How the data were processed

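Poly(A) RNA libraries (SMART-Seq v4 with Nextera XT, paired reads, a kit that does not mark strand) were compared as 5 Ag and 5 Ag+Costim samples, grouped by their labels. Per the labels, the authors aligned reads to mm10 with HISAT2 2.1.0, sorted them with SAMtools 1.9 and quantified them with StringTie 2.1.0. The deposited gene and transcript tables hold estimated counts (expected counts) rounded to whole numbers and not normalized, so totals are not read numbers. Entries without a gene identifier (0.0458 to 0.308% of counts) were left out. The authors' Whippet table holds PSI as a fraction, 1 pooled value for each group. Its columns of PSI difference and probability are the authors' own comparison and were not used.

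Genes were tested with edgeR 4.0.16 (filterByExpr by group, TMM, robust quasi-likelihood test, BH over all genes tested, two-sided) in R 4.3.3, beside DESeq2 1.42.0 and limma 3.58.1, and transcript usage with diffSpliceDGE. CPM are counts per 1e6 counts of a library, with TMM factors. The scripts were tested on simulated counts. The labels do not tie samples to animals, and the study describes the samples of a group as individual biological replicates from separate mice. Members and lists were chosen with earlier results of these data known. Named genes were all 8 members, the 2 genes most like each, the 2 most abundant of each pathway list where none passed the test, transcripts with a mean share of at least 5% and PSI events that differed by over 0.05. A gene that this rule names is not reported here. Leaving out 3 Ag libraries was chosen after seeing the data. Low-share comparisons are limited by the shallowest library, in which Nlrc5 had 6700 counts.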

Additional observations from a re-analysis of the deposited data

Results flagged for a closer look

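In 62 sets of 5 libraries (CPM, transcript shares, segments and ratios of the 8 genes), 5 had an end library whose gap to the next exceeded Dixon's 95% limit for 5 values, where chance gives about 1 in 20. Of the 5, 3 concern Ag replicate 3, the library with the fewest counts. H2-K1-201 held 67.5% of H2-K1 counts there against 24.3 to 30.2% in the other Ag libraries, H2-K1-205 held 20.8% against 59.2 to 62.4%, and the 27-base segment reached 78.3% against 31.1 to 36.8%. These 3 values draw on the same transcript counts. Tap1-206 held 49.0% in Ag replicate 5 against 41.9 to 43.8% in the other Ag libraries. In Ag+Costim replicate 2 the 27-base segment was at 34.0% against 34.9 to 35.2%, a small gap in a narrow range.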

How the results depend on the processing

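EdgeR called 0 genes under each other scaling, filter, block and left-out single library, and 0 of the 8. DESeq2 called 6214 genes (778 higher, 5436 lower; 1 of the 8), weighted limma 12670 (2 of the 8) and edgeR without Ag replicates 1, 3 and 4 called 2752 (1 of the 8). DESeq2 called 20 genes of the other lists, 6 higher and 14 lower. Of 152 refits of the 8 fold changes, 133 kept direction and call. Signs turned for H2-D1 with no filter (0.20) and 0.019 without Ag replicate 5, with -0.19 to 0.019 over the single libraries left out, for B2m with no filter (0.15), for Tap1 with total counts (-0.064), upper quartile factors (-0.047), the 10 CPM filter (-0.076) and fewer Ag libraries (-0.041), for Tapbp with DESeq2 (-0.036), its size factors (-0.045), total counts (-0.18), upper quartile (-0.15) and the 10 CPM filter (-0.19), and for Nlrc5 with weighted limma (-0.10), total counts (-0.024) and the 10 CPM filter (-0.012). The cause was not tested.

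Transcript usage called 145 genes with limma and 19 with 50 counts in 5 libraries, 33 to 92 with 1 library left out (most without Ag replicate 5), and 0 of the 8 throughout. PSI events over 0.1 numbered 2, which are the pair of alternative Nlrc5 ends. With the count-weighted length, Ag+Costim levels in CPM per kilobase were 1422 for H2-K1, 1984 for H2-D1, 225 for Tapbp, 143 for Tap1, 112 for Tap2, 27.2 for Erap1 and 18.4 for Nlrc5, and mean log2 ratios were -0.49 for H2-K1 to H2-D1, 0.50 for heavy chains to B2m, 0.35 for Tap1 to Tap2, -0.88 for Tap1 to Psmb9 and -0.66 for Tap1 to Tapbp.

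Replicate numbers shared between the groups did not pair libraries (correlations of same-numbered libraries from -0.34 to 0.18). The replicate block gave 0 genes called, 0 of the 8, and 30 genes with changed usage.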
